A study of Mus musculus with 6 samples.

Results

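Wnt pathway genes were described in mouse oligodendrocyte precursor cells (mOPCs), the glial precursors of the myelinating oligodendrocytes (OLs), after knockdown of Qk. The members were chosen by symbol: all Wnt, Fzd, Dkk and Sfrp genes, Dvl1 to Dvl3, Lrp5 and Lrp6, and the 13 genes Axin1, Axin2, Apc, Ctnnb1, Gsk3b, Apcdd1, Lef1, Tcf7, Tcf7l1, Daam2, Wif1, Znrf3 and Rnf43. This gave 56 of the 23038 genes in the files. RNA was measured in 3 libraries of cells transfected with control siRNA (siNC) and 3 libraries of cells transfected with siRNA against Qk (siQk), in primary cultures that were immunopanned from mouse embryos, given no other agent that the sources name and harvested 72 h after the siRNA was added. The labels name 3 different Qk siRNAs, and which one each siQk library received, the strain and sex of the animals, and whether animals were pooled are not given in the sources used here.

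Wnt proteins are secreted, lipid-modified ligands that bind Frizzled (Fzd) receptors, for the β-catenin branch together with the co-receptors Lrp5 and Lrp6. Receptor binding acts through Dishevelled (Dvl) on a destruction complex of Axin, Apc and Gsk3b, which otherwise marks β-catenin (Ctnnb1) for degradation, and stabilized β-catenin acts with TCF/LEF factors on target genes such as Axin2. Other Wnt branches act on the cytoskeleton and cell polarity. In the OL lineage, Wnt and β-catenin activity is known for its effects on the timing of OPC differentiation. Qk encodes STAR-family RNA-binding proteins that bind ACUAAC or ACUAAU in RNA.

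The Qk transcript was at 209, 206 and 163 RPKM in the siNC libraries and at 51.3, 76.6 and 36.2 RPKM in the siQk libraries, where RPKM is the tag number of a gene scaled to its exon length and to the total tags of the library. All siQk libraries lay below all siNC libraries, and the log2 fold change of siQk over siNC was -1.98 ± 0.28 (SE, FDR = 0.0031 by edgeR's quasi-likelihood test). The libraries held 58166490 to 141045937 tags. Tags of the ribosomal RNA gene Rn45s took up 3.11% of the smallest, siNC replicate 1, and 0.169% to 0.389% of the other libraries. The 8 OPC markers were all expressed, with a summed level of 1023 to 1100 RPKM in siNC and 1217 to 1370 RPKM in siQk. They did not move together, with 3 called higher (Cspg4, Olig1 and Olig2), 1 called lower and 4 not called. The lower one was Lhfpl3, with means of 203 RPKM in siNC and 108 RPKM in siQk (log2 fold change -1.07 ± 0.11, SE, edgeR FDR = 0.0012). The 8 myelin and mature OL markers summed to 3307 to 5823 RPKM in siNC and 1363 to 2065 RPKM in siQk, with 7 of 8 called lower, and in each siNC library this sum was above that of the OPC markers. The astrocyte markers summed to 97.1 to 156 RPKM in siNC and 30.7 to 34.0 RPKM in siQk. Gja1 was at 0.013 RPKM or less and was not tested. Of the 5 tested, 4 were called lower. Gfap, the highest of them in siNC, fell from a mean of 69.1 RPKM to 9.85 RPKM (log2 fold change -2.95 ± 0.26, SE, edgeR FDR = 0.00089). Cell cycle genes moved the other way, with 6 of 8 called higher and sums of 72.6 to 88.8 RPKM in siNC and 119 to 205 RPKM in siQk. The neuron markers summed to 100.1 to 170 RPKM in siNC and 74.9 to 114 RPKM in siQk, nearly all of it Tubb3, which was not called. Of the 4 neuron markers tested, Snap25 was called higher, at 0.641 to 0.886 RPKM in siNC and 3.35 to 7.57 RPKM in siQk (log2 fold change 2.64 ± 0.32, SE, edgeR FDR = 0.0021), and Syt1 lay above the siNC range without being called (0.87), while Stmn2 was at 0.0439 RPKM or less and Slc17a6 at 0. The microglia markers summed to at most 3.30 RPKM, and the single one tested, P2ry12, was called lower, at 0.669 to 3.20 RPKM in siNC and 0.152 to 0.287 RPKM in siQk (-3.16 ± 0.61, SE, edgeR FDR = 0.0089). The fibroblast and vascular markers summed to at most 0.304 RPKM. In bulk RNA, fewer cells of a type and less RNA per cell cannot be told apart, and the part of these markers in the changes of the Wnt pathway genes was not tested.

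Of the 56 members, 30 passed the filter on low counts (an average logCPM over 0), and 13 of these 30 (43.3%) passed the call used here, an unadjusted P below 0.01 with an FDR below 0.1. The same call was made for 31.0% of the 12505 genes tested. In siQk, 10 of the 30 members (33.3%) were lower, against 17.2% of all genes, and 3 (10%) were higher, against 13.8% of all genes. The RPKM ranges of the groups did not overlap for 21 of the 30 members (70.0%) and for 58.3% of all genes. The median log2 fold change was -0.21 over the members and 0.01 over all genes. The lower members were Wnt5a, Fzd3, Fzd5, Fzd8, Sfrp1, Apcdd1, Dvl3, Daam2, Axin2 and Ctnnb1, and the higher members were Fzd1, Dvl1 and Lrp5. They stood at every step of the pathway from the ligand to β-catenin. The split depended on the scaling between libraries. It was 8 members lower and 4 higher under upper quartile factors, and 7 lower and 7 higher with library size only. The split of all genes moved as well. Of all genes called, 55.4% were lower in the reported fit, 44.4% under upper quartile factors and 31.4% with library size only. Without siNC replicate 1, 11 members were called, and 25.4% of all genes tested. RPKM values are not corrected by the TMM factors that enter the fold changes (0.899 to 0.987 in siNC and 1.04 to 1.07 in siQk), so a gene with the same mean RPKM in both groups has a log2 fold change below 0.

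**Figure D1:**
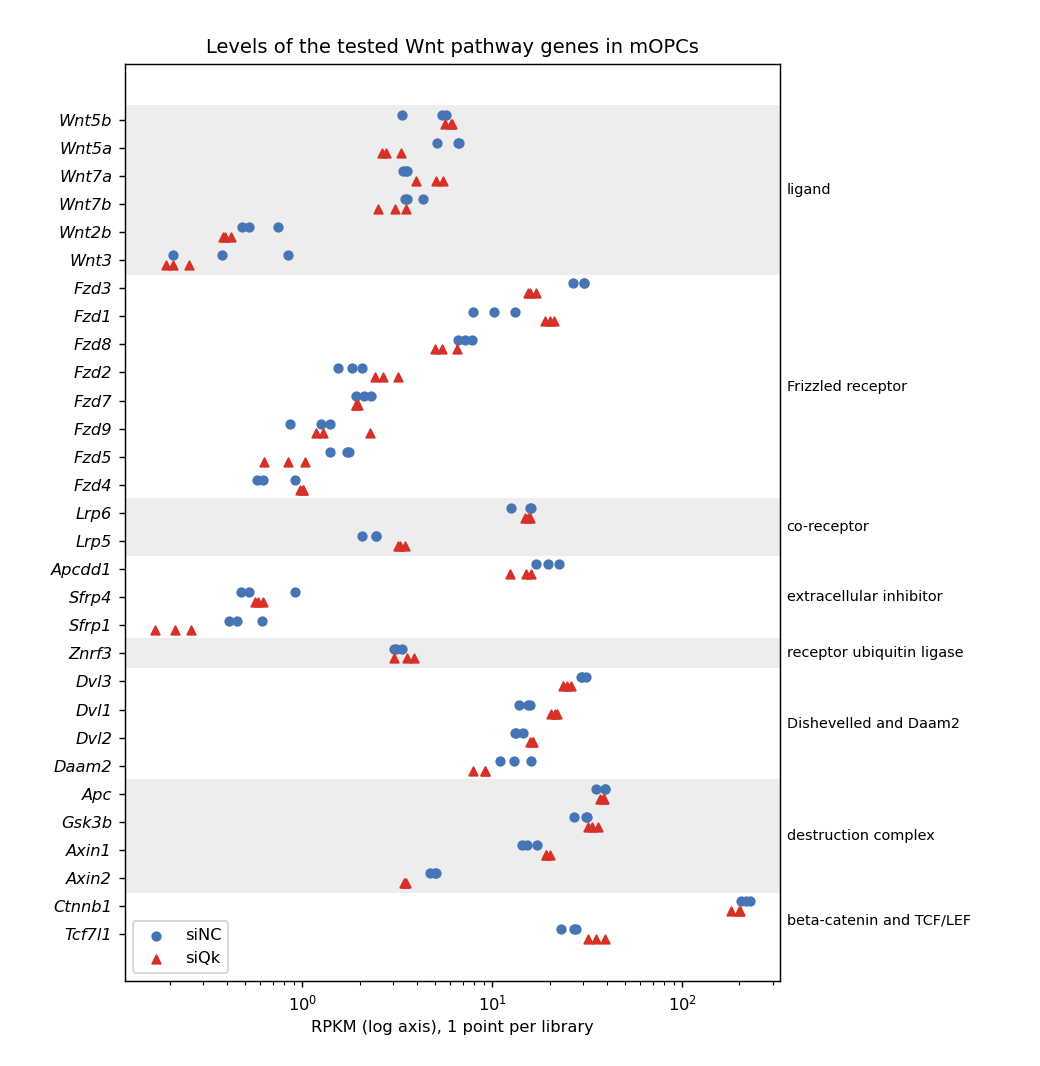
Level of each of the 30 tested Wnt pathway genes, in RPKM on a log axis, with 1 point per library (circles, siNC; triangles, siQk) and the genes grouped by role. Ctnnb1 was the highest gene in all 6 libraries, and the Fzd1 and Fzd3 points exchange their order between the groups.

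**Figure D2:**
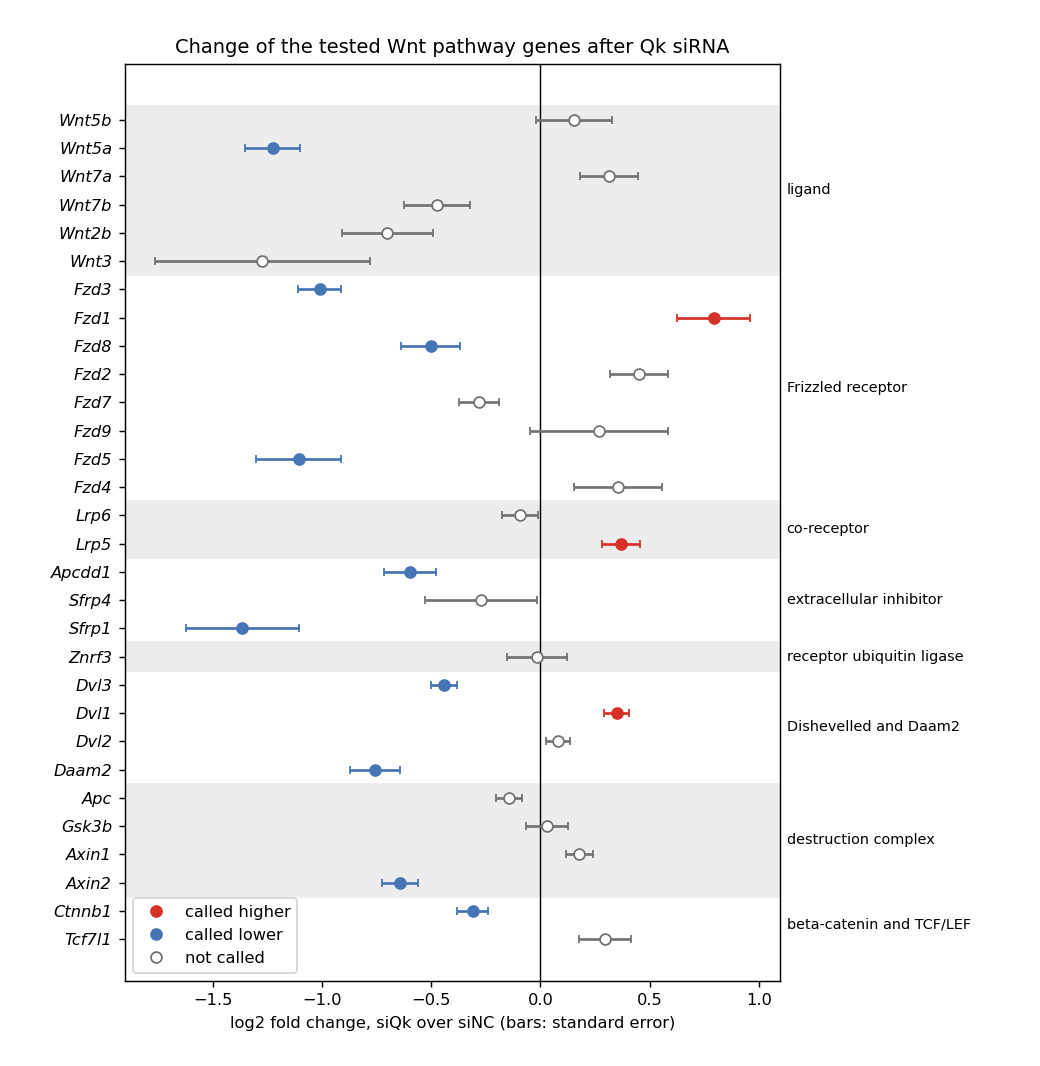
The log2 fold change of siQk over siNC for the same 30 genes, with bars for the standard error of the edgeR fit. The 10 genes called lower and the 3 called higher are filled, and each of the Frizzled and Dishevelled groups holds genes called in both directions.

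Because Qk proteins bind ACUAAC and ACUAAU, the longest 3' untranslated region (3'UTR) of each tested member was searched for these letters on the transcribed strand, in the GENCODE M21 annotation of GRCm38, the same assembly as mm10. At least 1 of these motifs was found in 16 of the 30 tested members (53.3%) and in 4269 of the 11831 tested genes with a 3'UTR (36.1%). The members had longer 3'UTRs (median 1920.5 bases against 1287), and per kilobase they held 0.36 motifs against 0.345 over all genes. Of the members lower in siQk, 6 of 10 held a motif (0.26 per kilobase), of those higher 0 of 3, and of those not called 10 of 17 (0.483 per kilobase). These rates rest on 10 motifs in the lower members and 20 in the members that were not called. The rate of the lower members also depends on the long 3'UTRs of Fzd3 (10270 bases) and Apcdd1 (8901 bases). The 3'UTR used for Apcdd1 was longer than the exon length of this gene in the files (2799 bases). Whether the lower members differ from the others in their motifs was not tested. Only protein-coding transcripts linked to the gene's Entrez identifier were used, and introns and coding exons were not searched. The 3'UTR used for Daam2, a lower member, was only 158 bases long. These shares are descriptions, and a match does not show that Qk proteins bind there.

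The windows of 30 bases around the motif in 5 of the lower members are shown so that the context of each motif can be read, as the RNA-sense strand 5' to 3' with T for U and the motif in capitals. Wnt5a has its motif at base 2197 of a 3'UTR of 4508 bases. Fzd3 has motifs at bases 7278 and 9024 of 10270, and Fzd5 at base 3065 of 4285. Ctnnb1 has motifs at bases 358 and 667 of 990, and Sfrp1 at bases 1030 and 1359 of 3144. The sixth lower member with motifs was Apcdd1, with 2.
Wnt5a, chr14:28525125-28525154, plus strand: ttgaaaaaaagcACTAATttagtttaaaat
Fzd3, chr14:65195424-65195453, minus strand: cattttcccagaACTAATcgtgtcagcaga
Fzd3, chr14:65193678-65193707, minus strand: atttagaggtagACTAATcccctggtgtaa
Fzd5, chr1:64731761-64731790, minus strand: ggccagggcagcACTAATcttgacaccggc
Ctnnb1, chr9:120959863-120959892, plus strand: agtgcctgacacACTAACcaagctgagttt
Ctnnb1, chr9:120960172-120960201, plus strand: atggtgtagaacACTAATtcataatcacgc
Sfrp1, chr8:23447506-23447535, plus strand: agcatttcaaagACTAACgtcgttgactgc
Sfrp1, chr8:23447835-23447864, plus strand: tttcaaaggctaACTAATctgcagctttcc
Of these 8 windows, 6 carried ACTAAT and 2 carried ACTAAC. All lie in annotated 3'UTRs, and the bases on either side of the motif differ between the windows.

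Among the ligands, Wnt5a fell while the other well-expressed Wnt genes did not pass the test. Wnt5a, which acts mainly through the polarity and calcium branches, was at 5.12, 6.57 and 6.65 RPKM in the siNC libraries and at 2.76, 2.62 and 3.30 RPKM in the siQk libraries. The siQk libraries all lay below the siNC libraries. The siQk level was 42.8% of the siNC level (log2 fold change -1.22 ± 0.13, SE, edgeR FDR = 0.0012). Its annotated exons (chr14:28504543-28527448, plus strand) share 358 bases with Gm2670 on the other strand, from which an unstranded library cannot separate reads.

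Wnt5b, its closest paralog, was at 3.34, 5.46 and 5.70 RPKM in siNC and at 6.15, 5.61 and 6.05 RPKM in siQk. The ranges overlapped, and the log2 fold change of 0.15 ± 0.17 (SE) was not called. Wnt7a and Wnt7b, which signal through β-catenin in the nervous system, were at 3.39 to 3.57 and 3.46 to 4.32 RPKM in siNC and at 3.98 to 5.46 and 2.51 to 3.50 RPKM in siQk (log2 fold changes of 0.31 and -0.47, not called). Wnt2b (log2 fold change -0.70) and Wnt3 (-1.27 ± 0.49, SE) were below 1 RPKM in every library and were not called. The siNC libraries of Wnt3 stood apart from each other, at 0.375, 0.840 and 0.209 RPKM.

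The 19 Wnt genes summed to 19.8 ± 2.53 RPKM in siNC and 17.7 ± 1.07 RPKM in siQk (SD, n = 3 each; two-sided exact permutation p = 0.3), and the ranges of the sums overlapped. Wnt5a, Wnt5b, Wnt7a and Wnt7b made up 92.1% of the sum in siNC and 94.5% in siQk. Within that sum the make-up differed. Wnt5a was 30.2%, 30.03% and 32.4% of it in the siNC libraries and 16.3%, 15.3% and 17.5% in the siQk libraries. Wnt5b made up 24.1% ± 4.12 in siNC and 33.7% ± 2.26 in siQk, and Wnt7a 17.9% ± 2.85 and 27.4% ± 4.28 (SD, n = 3 each), while the shares of Wnt7b overlapped. In every siNC library Wnt5a was above Wnt5b (ratios of 1.53, 1.20 and 1.17), and in every siQk library it was below it (0.449, 0.467 and 0.545). Such shares and ratios within a library do not depend on the scaling between libraries. Over 26 sums, shares and ratios compared, each one whose groups did not overlap had an exact permutation p of 0.1, the smallest that 3 libraries against 3 allow, and 0.144 after Benjamini-Hochberg adjustment over the 26.

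Frizzled receptors, the cell-surface receptors of Wnt ligands, held genes called in both directions. Fzd3, known for its part in axon guidance and planar polarity, was the highest of them in siNC at 30.3, 30.4 and 26.6 RPKM and was at 15.8, 15.5 and 17.03 RPKM in siQk. All siQk libraries were near the same level and below all siNC libraries. The siQk level was 49.6% of the siNC level (log2 fold change -1.01 ± 0.10, SE, edgeR FDR = 0.0011). The gene lies at chr14:65192441-65262463 on the minus strand.

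Fzd1, a receptor that can act with Lrp6 on β-catenin, was at 10.1, 7.89 and 13.2 RPKM in siNC and at 18.9, 21.0 and 20.1 RPKM in siQk. The siNC libraries spread more widely than the siQk libraries and all lay below them. Fzd1 was thus 1.73-fold higher in siQk (log2 fold change 0.79 ± 0.17, SE, edgeR FDR = 0.0123) and had the largest rise among the members called higher. The gene lies at chr5:4753839-4758216 on the minus strand, with no overlapping gene in the annotation.

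Fzd5, a receptor with known roles in eye development, was at 1.39, 1.76 and 1.72 RPKM in siNC and at 0.841, 0.626 and 1.03 RPKM in siQk. The groups did not overlap, and the log2 fold change was -1.11 ± 0.19 (SE, edgeR FDR = 0.0066). It shares 1233 exon bases, 17.8% of its exon length, with the unverified transcript Gm38058 on the other strand. Fzd8, which is known to pair with Lrp6, was at 7.21, 7.82 and 6.58 RPKM in siNC and at 4.96, 5.44 and 6.55 RPKM in siQk. The highest siQk library lay just under the lowest siNC library, and the log2 fold change was -0.50 ± 0.14 (SE, edgeR FDR = 0.0274). This call was lost without siNC replicate 1, siNC replicate 2, siQk replicate 1 or siQk replicate 2 (log2 fold changes of -0.46, -0.45, -0.42 and -0.47), and also with upper quartile factors (-0.44), library size only (-0.35) and the replicate block (-0.51).

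The other tested Frizzled genes were not called. Fzd2 had a log2 fold change of 0.45, Fzd4 of 0.36, Fzd7 of -0.28 and Fzd9 of 0.27, each from levels between 0.577 and 3.18 RPKM. Fzd2 was at 1.54 to 2.05 RPKM in siNC and at 2.41 to 3.18 RPKM in siQk, ranges that did not overlap. It was called under 4 of the 13 other settings, which were upper quartile factors (0.51), library size only (0.60), DESeq2 (0.44) and no filter on low counts (0.48).

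The 10 Frizzled genes together were at 54.9, 54.4 and 54.1 RPKM in siNC and at 47.6, 51.2 and 51.4 RPKM in siQk. The siQk sums were slightly lower in every library. Fzd1 and Fzd3 together made up 72.5% ± 1.93 of the sum in siNC and 72.1% ± 0.74 in siQk (SD, n = 3 each; two-sided exact permutation p = 0.8). Their order was exchanged. Fzd3 was 55.2%, 55.8% and 49.3% of the sum in the siNC libraries and 33.1%, 30.2% and 33.1% in the siQk libraries. Fzd1 was 18.5%, 14.5% and 24.3% in the siNC libraries and 39.6%, 41.1% and 39.0% in the siQk libraries. The ratio of Fzd1 to Fzd3 went from 0.363 ± 0.119 in siNC to 1.24 ± 0.10 in siQk (SD, n = 3 each). In siNC the order by mean RPKM was Fzd3, Fzd1 and Fzd8, with no overlap between neighbours, followed by Fzd7, Fzd2, Fzd5, Fzd9 and Fzd4, whose neighbours overlapped.

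**Figure D3:**
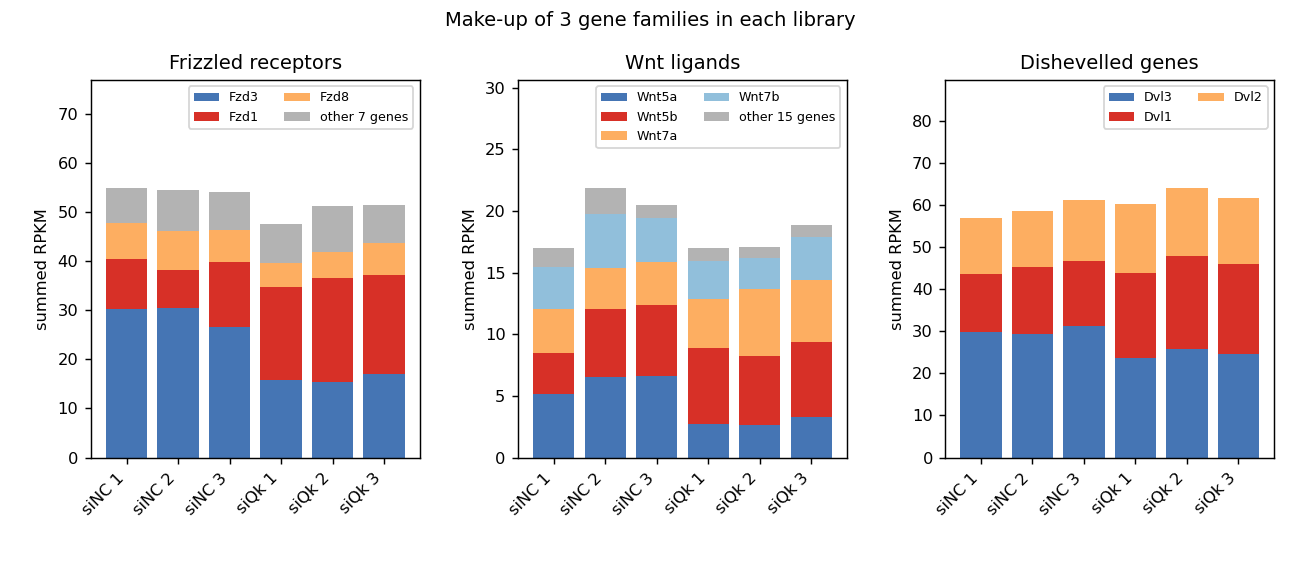
Summed RPKM of the Frizzled, Wnt ligand and Dishevelled genes in each library, stacked by gene, with the minor genes of each family in grey. The Wnt ligand and Dishevelled bar heights overlap between the groups, and the Frizzled bars are lower in all 3 siQk libraries. Fzd1 and Fzd3, Wnt5a and Wnt5b, and Dvl1 and Dvl3 take different shares in the 3 siNC and the 3 siQk libraries.

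The co-receptors differed in size and in call. Lrp6 was the more abundant, at 12.5, 16.1 and 15.8 RPKM in siNC and at 14.8, 15.8 and 15.5 RPKM in siQk. The ranges overlapped, and the log2 fold change was -0.09 ± 0.08 (SE, not called). Lrp5 was at 2.05, 2.45 and 2.45 RPKM in siNC and at 3.48, 3.18 and 3.27 RPKM in siQk, with every siQk library above every siNC library. Its log2 fold change was 0.37 ± 0.09 (SE, edgeR FDR = 0.018). The call was lost without siNC replicate 1 or 3 (0.32 and 0.38), without siQk replicate 1 or 3 (0.33 and 0.37) and with the replicate block (0.37). The ratio of Lrp5 to Lrp6 was 0.157 ± 0.006 in siNC and 0.216 ± 0.017 in siQk (SD, n = 3 each).

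Of the 11 extracellular inhibitors, 8 did not pass the filter on low counts, and of the 3 that were tested 2 were called lower. Apcdd1, a membrane glycoprotein that binds Wnt and Lrp proteins and inhibits signaling, was the only abundant one. It was at 17, 19.7 and 22.4 RPKM in siNC and at 12.3, 15.0 and 15.9 RPKM in siQk. The siQk libraries lay below the siNC libraries, by a log2 fold change of -0.60 ± 0.12 (SE, edgeR FDR = 0.0097), and with library size only it was no longer called (-0.45). Sfrp1, a secreted protein that binds Wnt ligands, was at 0.610, 0.454 and 0.409 RPKM in siNC and at 0.212, 0.260 and 0.166 RPKM in siQk. These levels rest on 155, 220 and 236 tags in siNC and on 131, 94 and 92 tags in siQk. Sfrp1 had the largest fall among the called members, to 38.9% of the siNC level (log2 fold change -1.36 ± 0.26, SE, edgeR FDR = 0.0087). Sfrp4 was at 0.475 to 0.912 RPKM in siNC and at 0.559 to 0.617 RPKM in siQk and was not called (-0.27). The receptor ubiquitin ligase Znrf3, which removes Frizzled from the cell surface, was at 3.04 to 3.36 RPKM in siNC and at 3.03 to 3.85 RPKM in siQk (log2 fold change -0.02 ± 0.14, SE, not called).

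Dishevelled genes, whose proteins carry the signal from the receptor into the cell, moved in both directions. Dvl3 was at 29.7, 29.5 and 31.3 RPKM in siNC and at 23.6, 25.8 and 24.6 RPKM in siQk. The replicates were close together and the groups apart, with a log2 fold change of -0.44 ± 0.06 (SE, edgeR FDR = 0.0030). Dvl1 was at 13.9, 15.8 and 15.3 RPKM in siNC and at 20.3, 21.97 and 21.3 RPKM in siQk, again with no overlap. The log2 fold change of Dvl1 was 0.35 ± 0.06 (SE, edgeR FDR = 0.0054). Dvl2 was at 13.2, 13.4 and 14.5 RPKM in siNC and at 16.3, 16.3 and 15.7 RPKM in siQk. The RPKM ranges of Dvl2 did not overlap, but the log2 fold change of 0.08 ± 0.05 (SE) was not called. With library size only it was 0.23, also not called. Of the Dvl2 exon bases, 22.2% overlap Acadvl on the other strand.

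The summed Dishevelled level was 58.9 ± 2.19 RPKM in siNC and 61.9 ± 1.97 RPKM in siQk (SD, n = 3 each; two-sided exact permutation p = 0.2), and the sums overlapped. Dvl3 made up 52.4%, 50.3% and 51.2% of it in siNC and 39.3%, 40.3% and 39.9% in siQk. Dvl1 made up 24.4%, 26.9% and 25.1% in siNC and 33.7%, 34.3% and 34.6% in siQk. Dvl3 remained the highest of the 3 in every library, and the ratio of Dvl1 to Dvl3 went from 0.497 ± 0.035 to 0.859 ± 0.007 (SD, n = 3 each). Daam2, a formin that acts with Dishevelled and is known to hold back OL differentiation, was at 11, 13.01 and 15.96 RPKM in siNC and at 7.94, 9.12 and 9.10 RPKM in siQk. No siQk library reached the siNC range (log2 fold change -0.76 ± 0.12, SE, edgeR FDR = 0.0041).

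In the destruction complex, Axin2 alone of the 4 genes tested was called. Axin2, a scaffold and a widely used target gene of β-catenin, was at 4.97, 4.68 and 5.02 RPKM in siNC and at 3.44, 3.53 and 3.47 RPKM in siQk. Both groups were tight and did not overlap. The siQk level was 64.1% of the siNC level (log2 fold change -0.64 ± 0.08, SE, edgeR FDR = 0.0023), from 1242 to 2846 tags per library.

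Axin1, the constitutive scaffold, was at 14.2, 15.3 and 17.1 RPKM in siNC and at 19.2, 20.2 and 19.1 RPKM in siQk. The RPKM ranges of Axin1 did not overlap, but the log2 fold change of 0.18 ± 0.06 (SE) was not called (edgeR FDR = 0.0609). It was called without siNC replicate 3 (0.23) and with library size only (0.33). The ratio of Axin2 to Axin1 within a library was 0.349, 0.307 and 0.293 in siNC and 0.179, 0.175 and 0.182 in siQk, so that Axin2 was lower relative to Axin1 in every siQk library. Apc, the tumour suppressor of the complex, was at 35.2, 39.1 and 39.3 RPKM in siNC and at 36.98, 38.3 and 38.6 RPKM in siQk (log2 fold change -0.14 ± 0.06, SE, not called). The kinase Gsk3b was at 31.0, 27.1 and 31.5 RPKM in siNC and at 33.7, 31.8 and 36.1 RPKM in siQk (0.03 ± 0.10, SE, not called).

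Ctnnb1, which encodes β-catenin, was by far the most abundant member. It was at 203, 216 and 228 RPKM in siNC and at 199, 201 and 179.9 RPKM in siQk. The highest siQk library lay just under the lowest siNC library, and the fall was small, to 80.7% of the siNC level (log2 fold change -0.31 ± 0.07, SE, edgeR FDR = 0.0157). The call was lost without siQk replicate 1, 2 or 3 (-0.33, -0.33 and -0.27). It was also lost with upper quartile factors, library size only or the replicate block (-0.25, -0.16 and -0.31). Of its exon bases, 18.5% overlap Ulk4 on the other strand. Regulation of β-catenin is known to act mostly on the protein, which was not measured.

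Of the TCF/LEF genes, Tcf7l1, often a repressor of Wnt targets, was the only member that passed the filter. It was at 27.7, 23.0 and 26.97 RPKM in siNC and at 35.04, 31.8 and 39.1 RPKM in siQk. The ranges of Tcf7l1 did not overlap, but the log2 fold change of 0.30 ± 0.12 (SE) was not called (edgeR FDR = 0.0909), and it was called with library size only (0.45). Lef1, an activator of Wnt targets, was at 0.0106 to 0.0293 RPKM, from 9 to 28 tags per library. Tcf7 was at 0.117 to 0.312 RPKM, from 18 to 109 tags. Tcf7l2, the TCF factor known from OL development and named by its place in the pathway list, was at 10.7, 8.66 and 9.21 RPKM in siNC and at 9.06, 9.68 and 11.6 RPKM in siQk. The log2 fold change of Tcf7l2 was -0.07 ± 0.14 (SE, not called). Tcf7l1 was above Tcf7l2 in every library, with ratios of 2.72 ± 0.18 in siNC and 3.50 ± 0.32 in siQk (SD, n = 3 each).

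Since Axin2 is a target of β-catenin, promoters were searched on both strands for the CTTTGAT and CTTTGAA forms of the TCF motif. Other forms, such as CTTTGTT, were not searched. The RefSeq promoters of GRCm38.p6 were used (250 bases before to 50 after the annotated start). Promoters were matched for 17 of the 30 tested members. Of their 21 promoters, 1 held either form (4.76%), a promoter of Wnt5b. The shares were 5.78% of the promoters of tested genes and 8.65% of all promoters in the table. None of the 9 promoters of 7 called members held either form. The matched Axin2 promoter is shown because transcription of Axin2 is the usual readout of the pathway. It lies at chr11:108920099-108920398 on the plus strand, with the 50 bases from this start onwards in capitals.
Axin2: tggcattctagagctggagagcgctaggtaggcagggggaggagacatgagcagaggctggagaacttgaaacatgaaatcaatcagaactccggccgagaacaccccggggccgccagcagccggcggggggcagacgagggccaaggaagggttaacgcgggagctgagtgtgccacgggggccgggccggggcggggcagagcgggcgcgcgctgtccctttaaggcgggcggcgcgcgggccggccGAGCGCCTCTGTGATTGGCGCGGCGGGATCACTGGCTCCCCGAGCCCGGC
This window is GC-rich, with 70.0% G or C and 31 CpG dinucleotides. The Axin2 gene is annotated from chr11:108917828, upstream of this window, and no promoter at that position was searched. The absence of a match says only that these letters are not in this window, and starts outside the table were not searched.

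The 26 members that did not pass the filter were 13 ligands, 8 extracellular inhibitors, Fzd6, Fzd10, Lef1, Tcf7 and Rnf43. Wnt8a, Wnt9b and Dkkl1 had 0 tags in all 6 libraries, where the upper limit that a count of 0 allows (3 tags) is 0.00471 to 0.0571 RPKM per library, for counting error only. Dkk1, Dkk4, Wnt1, Wnt3a, Wnt8b, Wnt10b and Wnt16 had at most 3 tags in every library. The other 16 ranged up to the 0.487 RPKM of Sfrp2, a secreted Wnt-binding protein. Of the 26, Fzd6, Wif1, Dkk2, Dkk3 and Wnt16 had siQk ranges above the siNC ranges, and Sfrp2, Fzd10, Wnt6 and Wnt9a had them below. Such ranges are common, since 58.3% of the 12505 genes tested did not overlap, and Wnt16 had at most 1 tag per library. Wif1, a secreted Wnt inhibitor, was at 0.102 to 0.171 RPKM in siNC and at 0.218 to 0.285 RPKM in siQk, and Dkk3 at 0.0863 to 0.176 and 0.182 to 0.287 RPKM, while Sfrp2 was at 0.356 to 0.487 and 0.227 to 0.338 RPKM. Fzd10 was at 0.239 to 0.350 RPKM in siNC and at 0.146 to 0.230 RPKM in siQk. Wnt4 was at 0.0634 to 0.216 RPKM and Rnf43, the paralog of Znrf3, at 0.0384 to 0.0835 RPKM over all libraries. These members entered no test in the reported fit. With the filterByExpr filter of edgeR, 12 of them were tested and 1 was called. This was Fzd6, at 0.0210, 0.0376 and 0.0297 RPKM in siNC and at 0.0781, 0.0592 and 0.0735 RPKM in siQk, from 5 to 45 tags (log2 fold change 1.09 ± 0.31, SE, edgeR FDR = 0.0335). With no filter, 23 were tested and Fzd6 missed the cutoff on the unadjusted P (1.11 ± 0.35, SE).

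Beyond the members, a list of 76 other genes of the pathway was examined, of which 66 were tested. In siQk, 10 were higher and 13 lower, so that 23 (34.8%) changed, against the 31.0% of all genes, with a median log2 fold change of 0.11. By role, 5 of the 10 planar polarity genes were lower and 1 higher, 3 of 15 nuclear partners were higher and 1 lower, 3 of 18 cytoplasmic regulators changed in each direction, 1 of 8 receptors and co-receptors was higher, 2 of 3 genes of ligand secretion and co-ligands were lower, and 2 of 12 target genes changed in each direction.

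In the planar polarity arm, Rhoa, the GTPase that links this branch to actin, was at 222, 217 and 205 RPKM in siNC and at 119, 119.98 and 111 RPKM in siQk. The siQk libraries were all near 1 level, below the siNC libraries (log2 fold change -1.04 ± 0.08, SE, edgeR FDR = 0.00063). Prickle1, a core polarity protein, was at 35.1, 23.3 and 20.4 RPKM in siNC and at 9.75, 9.16 and 14.8 RPKM in siQk (-1.39 ± 0.29, SE, edgeR FDR = 0.0117). Of the polarity cadherins, Celsr1 and Celsr2 fell (log2 fold changes of -1.04 and -0.93) and Celsr3 rose (1.41), the last from 1.79 ± 0.56 to 5.25 ± 1.45 RPKM (SD, n = 3 each). The Celsr1 call was lost without siQk replicate 1 or 2 (-0.95 and -0.997).

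Among the nuclear partners, the Groucho-type co-repressors Tle2 and Tle3, which bind TCF factors, rose. Tle2 was at 6.32, 4.66 and 5.91 RPKM in siNC and at 15.8, 25.5 and 16.3 RPKM in siQk. Tle3 was at 7.18, 7.60 and 8.31 RPKM in siNC and at 15.2, 19.1 and 18.3 RPKM in siQk. Neither gene had overlapping groups, and their log2 fold changes were 1.61 ± 0.22 and 1.03 ± 0.09 (SE, edgeR FDR = 0.0029 and 0.00090).

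At the receptor, the norrin ligand gene Ndp, whose protein binds Fzd4, averaged 5.63 ± 1.39 RPKM in siNC and fell to 3.25 ± 0.26 RPKM in siQk (SD, n = 3 each), by a log2 fold change of -0.94. Lgr5, an R-spondin receptor and itself a Wnt target, was at 0.643 ± 0.162 RPKM in siNC and at 1.29 ± 0.24 RPKM in siQk (SD, n = 3 each), for a log2 fold change of 0.86. Its call was lost without siNC replicate 1 or 3 (0.81 and 0.72), without siQk replicate 1 or 3 (0.70 and 0.91) and with the replicate block (0.87). Of the genes often listed as targets, Myc was at 16.3, 13.6 and 19.1 RPKM in siNC and at 34.6, 40.1 and 25.9 RPKM in siQk (0.88 ± 0.18, SE, edgeR FDR = 0.0108). Cd44, an adhesion receptor, was at 16.6, 17.3 and 17.4 RPKM in siNC and at 5.82, 4.30 and 5.64 RPKM in siQk (-1.85 ± 0.13, SE, edgeR FDR = 0.00045). Axin2 and Cd44 were thus lower and Myc and Lgr5 higher, so that these known targets of the pathway did not share 1 direction. Most target genes of the list, 8 of the 12 tested, were not called.

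**Figure D4:**
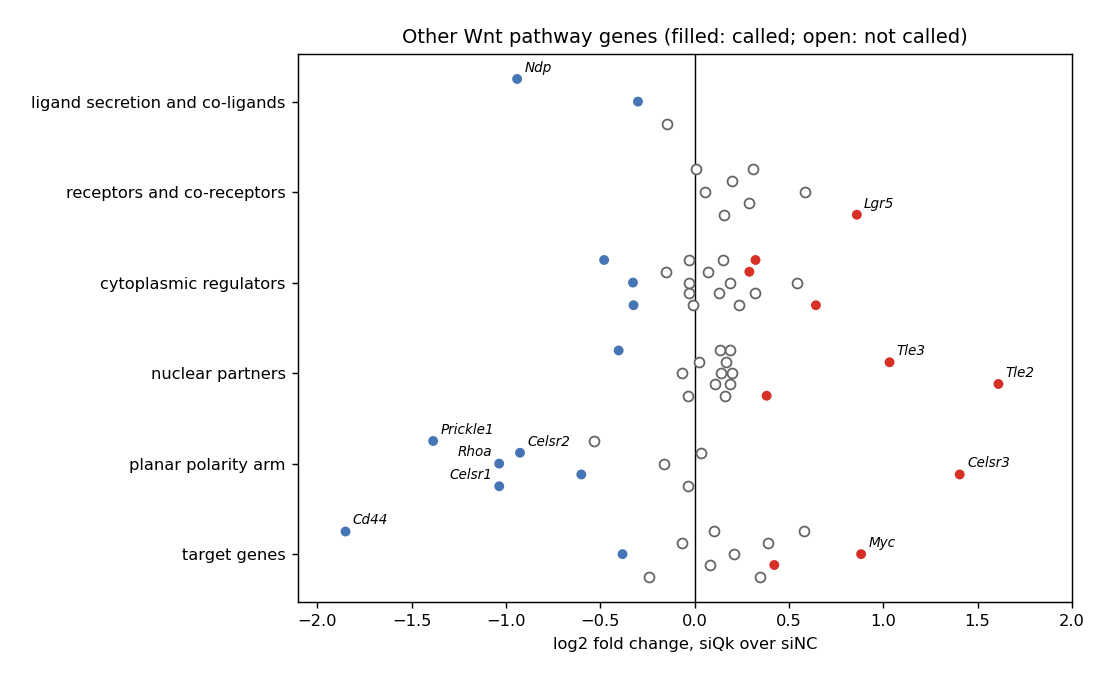
The log2 fold change of siQk over siNC for the 66 tested genes of the wider pathway list, in rows by role, with called genes filled and those named in the text labelled. Of the planar polarity genes 5 were called lower, while Celsr3, Tle2 and Tle3 lay above 1.

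Of the 13 members called, 9 were called under all 13 other settings of scaling, test, filter, block, depth and left-out library, the stricter cutoff aside. These were Axin2, Dvl1, Dvl3, Fzd1, Fzd3, Fzd5, Sfrp1, Wnt5a and Daam2. The log2 fold changes ranged from -1.09 to -0.86 for Fzd3, from 0.62 to 0.97 for Fzd1, from -1.33 to -1.08 for Wnt5a and from -0.68 to -0.49 for Axin2. Ctnnb1, Fzd8, Lrp5 and Apcdd1 kept their direction but not their call.

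**Figure D5:**
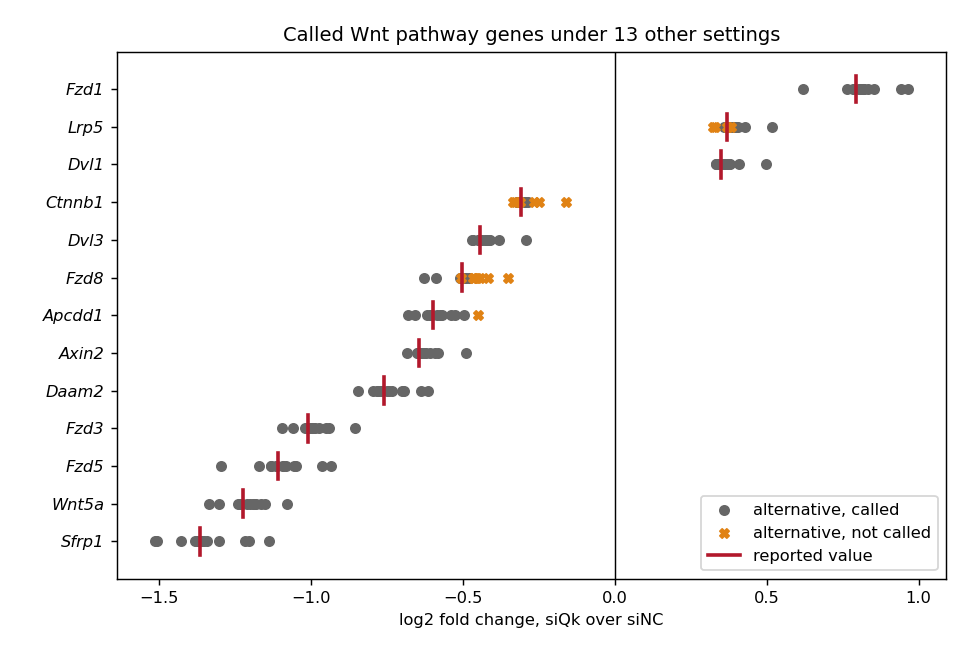
The log2 fold change of each of the 13 called members under the reported fit (bars) and under 13 other settings (points), with crosses where the gene was not called. Fzd1, Lrp5 and Dvl1 lay above 0 and the other 10 below 0 under every setting, and crosses appear for Ctnnb1, Fzd8, Lrp5 and Apcdd1.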

How the data were processed

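Paired-end TruSeq v2 poly-A libraries, a kit that does not mark strand, were aligned by the authors to mm10 with OLego, and genes were quantified with Quantas. Versions and the gene annotation are not given in the sources used here. For each gene the authors deposited a tag number, an estimated count that can carry decimals, without normalization. The deposited RPKM is that count scaled by exon length and library total, as recomputation showed.

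Tag numbers were rounded. The 12505 genes with an average logCPM over 0 were fitted with edgeR 4.0.16 (TMM, quasi-likelihood test, group as the only term; R 4.3.3, limma 3.58.1), adjusted by Benjamini-Hochberg over all of them and called at P below 0.01 and FDR below 0.1. SE is the size of the log2 fold change over the root of the F statistic. The fit was tested on simulated data. Totals were 58166490 to 141045937 tags, which sets the precision of low genes. Libraries of a group differed by a chi-square per degree of freedom of 36.3 or more, and each counted as 1 replicate. Labels call the replicates biological, with no further detail.

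The members, the lists and the tests were chosen with earlier results of these data known. Per-library values are given for called members and for other tested members with a mean of at least 5 RPKM. Of the pathway list, Tcf7l2 and called genes at 0.8 or more from 0 on the log2 scale are named. Some ranges of lower genes were added after their values were seen. Amer1 is listed as Fam123b. Alternatives were DESeq2 1.42.0, upper quartile factors, library size only, 2 filters, a replicate block, leave-one-out fits, thinning and a stricter cutoff.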

Additional observations from a re-analysis of the deposited data

How the results depend on the processing

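The Qk fall was called under all 13 alternatives (log2 fold change -2.29 to -1.76). The number of members changed was 10 to 18 under other scalings, tests, filters, the block and thinning. It was 11 to 15 when 1 library was left out (2 to 4 higher, 8 to 12 lower). For the pathway list it was 18 to 26 and 16 to 23. Of all genes tested, 22.4% to 39.1% were called under the former settings and 19.8% to 29.7% when 1 library was left out. With library size only, the median of all genes was 0.16 instead of 0.01, and 7 members were higher. With an FDR under 0.05 and a log2 fold change of 1 or more in size, 4 members changed, 4 lower and 0 higher by edgeR, and 7 genes of the pathway list. No member was higher by that much at an unadjusted P below 0.05 by edgeR or DESeq2 (0 each). At that P with no fold limit, 6 members were higher and 15 lower by edgeR. The shares of all genes past these cutoffs were not computed, so these counts are descriptions only. DESeq2 also called Apc, Fzd2, Fzd7, Wnt2b and Wnt7b, library size only added Axin1, Fzd2, Tcf7l1 and Wnt7a, upper quartile factors and no filter added Fzd2, and filterByExpr added Fzd6. Leaving out 1 library added Axin1, Wnt2b and Wnt3 (0.23, -0.85 and -1.65, without siNC replicate 3), Fzd4 (0.58, without siNC replicate 2), Wnt7a (0.43, without siQk replicate 1) and Wnt7b (-0.60, without siQk replicate 3). The causes were not tested.

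Signs turned only for genes that were not called. Znrf3 was at 0.044 with upper quartile factors, 0.13 with library size only, 0.0073 with no filter and 0.012 after thinning. With library size only, Apc was at 0.0053, Lrp6 at 0.054 and Tcf7l2 at 0.088. Leaving out 1 library, values ran from -0.10 to 0.074 for Znrf3 (0.0076 and 0.018 without siNC replicate 1 and 2), -0.19 to 0.070 for Tcf7l2 (0.0055 without siQk replicate 1), -0.021 to 0.26 for Wnt5b, -0.42 to 0.069 for Sfrp4, -0.070 to 0.46 for Fzd9 and -0.048 to 0.10 for Gsk3b (-0.026 without siQk replicate 3). Wnt3 did not pass the filter without siNC replicate 2. Over 42 genes and 545 values, 485 kept direction and call, 26 lost the call, 17 gained it and 17 turned.

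Same-numbered libraries did not deviate together (correlations of -0.05, -0.15 and -0.34), so the numbers were not taken as pairs, and no library correlated best with its own number. With the replicate number as a block, 10 members were called, 8 lower and 2 higher, and 18 genes of the pathway list. Over all genes tested, 22.4% were called with this block. Qk was at -2.03.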
